A study of Mus musculus with 4 samples.

Results

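Gene expression in the liver of transgenic mice with a constitutively active aryl hydrocarbon receptor (AhR) was compared with that in wild-type liver. The comparison was made over all probe sets of the liver arrays, which are 2 of the 4 arrays of the series. The wild-type group was liver of wild-type mice, and the transgenic group was liver of mice expressing constitutively activated AhR (CA-AhR). All mice were female, 5 to 6 weeks old and fed standard rodent chow. Tissue of 3 mice was pooled per genotype, and each pool was hybridised as biotin-labelled cRNA to 1 Affymetrix Mouse Genome 430 2.0 array, so the spread between mice was not measured. The other arrays held duodenum of the same genotypes. The sources used here do not name the transgene's promoter, its founder lines or the strain. With 1 array per genotype no difference has a replicate check, and every ratio below is a description of these pools.

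AhR is a ligand-activated transcription factor of the bHLH-PAS family. It enters the nucleus when it binds aromatic ligands such as dioxins, pairs with ARNT and binds DNA elements with a short GC-rich core. In liver it is best known for raising cytochromes of the CYP1 family, and it also alters lipid handling, retinoid storage and the timing of liver metabolism. The receptor in these mice acts without ligand, so the comparison shows which liver transcripts differ when AhR is active in the absence of an added ligand.

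The values are MAS5 signals, a brightness per probe set on a linear scale. In what follows a pair of signals joined by "against" gives wild-type liver first and transgenic liver second. Where a gene has several measured probe sets, their signals run from the brightest in wild-type liver downward, in the same order for both genotypes. Median signals were alike, 176.5 for the wild type and 177.2 for the transgenic pool, and 6212 and 6332 probe sets reached a signal of 1000. Of 18193 named genes, 13951 lay above a floor of 129.3 on at least 1 liver array, and these are called measured. The 3′/5′ signal ratio of Gapdh, a sign of RNA integrity, was 0.608 and 0.719, and that of Actb was 1.51 and 1.38. The hepatocyte transcript Alb, which encodes albumin, gave 82739 against 58409, so both pools carried the defining transcript of the labelled tissue. The transgenic label was borne out by Cyp1a1, a CYP1 cytochrome, which gave 1404 against 47626. Ahr gave 2019.8 and 324 against 2274 and 860.0, and its partner Arnt gave 592 against 595 on its brightest probe set. Of 8 measured genes for AhR and its partner proteins, 0 differed by 1.5-fold or more on the brightest probe set, although the dimmer probe set of Ahr was 2.65-fold higher.

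Each gene takes its value from the probe set that was brightest over the 4 arrays, with signals below the floor raised to it. By that value 658 genes differed upward by at least 2-fold (4.72% of those measured) and 500 downward (3.58%). Where 1 array represents a genotype, probe sets that read different stretches of the same transcript are the closest thing to a repeat measurement, although they share the RNA and the array. Genes were therefore ranked by agreement. A gene counted as agreeing when at least 2 of its measured probe sets differed by 1.5-fold or more the same way, 1 of these reached a signal of 1000 on a liver array, and none differed by 1.5-fold or more the other way. Of 2726 genes with at least 2 measured probe sets and that signal, 124 were agreeing and higher (4.55%) and 139 were agreeing and lower (5.10%). Every measured probe set agreed in 63 of the higher and 74 of the lower genes, and 3 or more probe sets agreed in 28 and 37. At the edge of the signal rule, Twsg1 was inside with 1010 and Pde4dip outside with 998.4 among the higher genes, and Zwint inside with 1001.5 and Tmem189 outside with 996.8 among the lower.

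Agreement was common but not general among the bright genes with large ratios. Of 160 genes that were 2-fold higher with a signal of 1000 or more, 86 had a second measured probe set. Of these, 56 were agreeing, 8 had a probe set that differed the other way and 22 were neither. The corresponding numbers among 114 lower genes were 52 with a second probe set, of which 38 were agreeing, 6 contradicted and 8 neither. The median log2 ratio over agreeing probe sets ran from 0.61 to 6.21 among the higher genes and from -2.97 to -0.60 among the lower ones. It reached 2-fold in 61 of the higher and 41 of the lower genes, so large ratios were more often upward and most of the downward ratios were moderate.

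**Figure D1:**
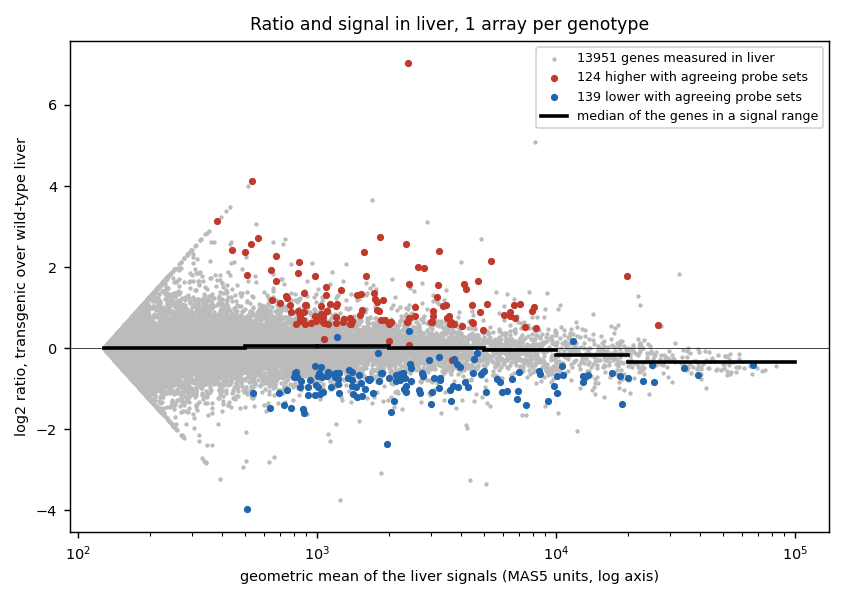
Log2 ratio of transgenic over wild-type liver (vertical axis) against the geometric mean of the liver signals (horizontal log axis) for 13951 measured genes, each a point at its brightest probe set. Red marks the 124 higher and blue the 139 lower genes with agreeing probe sets, and black bars give the median in each range of signal, which lies near 0 up to 5000 and at -0.34 above 20000.

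The ratio depended on brightness. Among genes with a geometric mean signal of 1000 to 2000 the median log2 ratio was 0.04, from 5000 to 10000 it was -0.04, from 10000 to 20000 it was -0.16, and among the 166 genes above 20000 it was -0.34. The 10 brightest genes of wild-type liver were all dimmer in the transgenic pool, by log2 ratios from -0.36 for the elongation factor gene Eef1a1 to -0.64 for Fabp1, the liver fatty acid binding protein. Apoa2, an apolipoprotein, was the brightest on both arrays at 97587 against 71556. Removing this trend with lowess, a smooth curve through ratio against signal, left the medians between -0.06 and 0.05 and kept 120 of the 124 higher and 125 of the 139 lower genes. The zero point of all ratios is the MAS5 scaling, which sets the trimmed mean of every array to 500. On a zero point set by 18 spiked hybridization controls, whose median log2 ratio was -0.68, all measured genes would have a median of 0.66, with 1877 agreeing genes higher and 9 lower. Those controls do not measure tissue RNA. On that scale every log2 ratio moves up by 0.68 before the floor is applied, so a gene that is called lower by less than 1.60-fold here would lie above 0. Statements that a gene was lower are therefore relative to the bulk of liver transcripts.

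Because the AhR core sequence GCGTG is the motif through which the receptor is known to bind, the RefSeq promoter windows of the agreeing genes were searched for it. A window runs from 250 bases before to 50 bases after the transcript start (build GRCm38.p6). The windows of 7 agreeing genes are printed 5′ to 3′ to show what was searched. Capitals mark GCGTG or its reverse complement CACGC in the first 6 (for Alas1, 1 of 2 overlapping windows is printed), and the sterol element TCACNCCAC or its reverse complement in Hmgcs1. Cyp1b1 and Tiparp are known AhR targets, Selenbp1 had the brightest transgenic signal of the agreeing higher genes, and Srxn1 is a stress response gene. Htra1 had the second highest ratio, Alas1 was lower, and Hmgcs1 is a gene of cholesterol synthesis.
Cyp1b1, chr17:79715012-79715311, minus strand: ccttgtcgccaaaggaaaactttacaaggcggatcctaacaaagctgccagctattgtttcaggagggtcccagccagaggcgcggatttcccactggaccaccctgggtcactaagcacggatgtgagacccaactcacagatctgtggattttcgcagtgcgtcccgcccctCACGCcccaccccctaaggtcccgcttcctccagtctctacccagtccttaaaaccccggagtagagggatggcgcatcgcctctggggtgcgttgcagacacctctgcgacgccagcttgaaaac
Tiparp, chr3:65528197-65528496, plus strand: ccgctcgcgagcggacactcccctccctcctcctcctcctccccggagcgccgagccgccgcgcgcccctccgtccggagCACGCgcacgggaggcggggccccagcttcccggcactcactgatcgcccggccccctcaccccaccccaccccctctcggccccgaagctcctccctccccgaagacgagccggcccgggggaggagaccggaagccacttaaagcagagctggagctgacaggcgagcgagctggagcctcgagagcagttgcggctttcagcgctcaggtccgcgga
Selenbp1, chr3:94932833-94933132, plus strand: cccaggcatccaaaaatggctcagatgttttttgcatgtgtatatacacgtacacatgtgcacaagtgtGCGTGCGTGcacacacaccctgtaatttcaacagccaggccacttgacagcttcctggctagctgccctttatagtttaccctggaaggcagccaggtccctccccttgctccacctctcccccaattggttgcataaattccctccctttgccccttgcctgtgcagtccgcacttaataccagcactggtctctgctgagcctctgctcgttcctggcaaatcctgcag
Srxn1, chr2:152105274-152105573, plus strand: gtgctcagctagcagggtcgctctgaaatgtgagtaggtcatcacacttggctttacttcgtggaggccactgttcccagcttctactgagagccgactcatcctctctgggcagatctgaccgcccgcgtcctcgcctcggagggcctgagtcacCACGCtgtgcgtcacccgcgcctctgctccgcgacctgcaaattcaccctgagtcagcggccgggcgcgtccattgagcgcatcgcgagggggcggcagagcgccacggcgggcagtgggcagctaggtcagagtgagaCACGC
Htra1, chr7:130935953-130936252, plus strand: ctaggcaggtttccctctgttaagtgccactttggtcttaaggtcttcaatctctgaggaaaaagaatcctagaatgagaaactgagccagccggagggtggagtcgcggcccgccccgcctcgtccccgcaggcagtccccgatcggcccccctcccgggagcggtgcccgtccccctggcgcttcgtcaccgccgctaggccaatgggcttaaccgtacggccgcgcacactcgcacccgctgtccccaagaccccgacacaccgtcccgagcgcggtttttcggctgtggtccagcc
Alas1, chr9:106247905-106248204, minus strand: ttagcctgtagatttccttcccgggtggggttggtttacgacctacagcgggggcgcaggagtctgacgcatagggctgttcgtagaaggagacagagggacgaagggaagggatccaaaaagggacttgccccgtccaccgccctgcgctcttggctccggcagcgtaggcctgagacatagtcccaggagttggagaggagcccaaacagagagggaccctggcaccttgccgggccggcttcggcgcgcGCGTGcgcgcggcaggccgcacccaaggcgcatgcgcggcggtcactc
Hmgcs1, chr13:119690101-119690400, plus strand: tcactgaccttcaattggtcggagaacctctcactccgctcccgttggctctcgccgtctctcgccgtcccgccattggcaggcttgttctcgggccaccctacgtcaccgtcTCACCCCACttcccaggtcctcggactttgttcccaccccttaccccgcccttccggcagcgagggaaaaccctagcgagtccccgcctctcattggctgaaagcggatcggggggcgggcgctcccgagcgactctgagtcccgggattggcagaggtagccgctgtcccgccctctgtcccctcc

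The AhR core was present at 1 place in the windows of Cyp1b1, Tiparp and Alas1 and at 2 in those of Selenbp1, where the matches overlap, and Srxn1. It was absent from these 300 bases of Htra1. Over all agreeing genes, 49 of 99 higher genes with a window held the core (49.5%), as did 61 of 114 lower genes (53.5%). The share was 51.5% over all 11216 measured liver genes with a window and 35.2% over all 27025 genes with one. Both groups thus lay near the share of the measured genes. The E-box CACGTG was found in 7.07% of higher and 11.4% of lower genes, against 1233 of the 11216 measured genes. The sterol element was found in 2 of 99 higher and 6 of 114 lower genes, against 1.48% of measured genes. Among 5 agreeing lower cholesterol genes with a window, only Hmgcs1 held the sterol element. The AhR core was found in 4 of those 5, and not in Hmgcs1. So few genes cannot be set against the shares above. These are matches of letters in a short window near the start and say nothing of distal elements.

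Genes of the known AhR battery were mostly higher. Of 11 measured genes, 8 were 1.5-fold or more higher, 0 lower and 3 neither, with a median log2 ratio of 1.24. Over all measured genes 13.5% were higher and 12.1% lower, and these shares are the background for every liver list count below. They vary with the geometric mean signal. Under 500, 17.81% were higher and 15.55% lower, and from 1000 to 2000 the shares were 8.645% and 6.581%. From 10000 to 20000 they were 2.137% and 14.96%. The background is thus rough for lists of mostly bright or mostly dim genes. Of the 11, 2 passed the floor only on the transgenic array and so had to read higher there. Cyp1b1 gave 264, 210.4 and 162 against 10966, 27589.7 and 232, and Tiparp, an ADP-ribosyltransferase that limits AhR signalling, gave 955, 708 and 203 in the wild type and 3526, 4758 and 1698 in the transgenic pool. These were the only 2 members with enough probe sets for the agreement rule. Cyp1a2, bright already in the wild type, gave 17430.2 against 62038, and Ahrr, the AhR repressor, 8.4 against 1456.

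Among the 8 highest agreeing ratios, 6 belonged to genes outside the AhR battery, which are described next. Htra1, a secreted serine protease of the matrix, read 50.3 and 41.2 against 3483 and 2244. Both wild-type signals lay under the floor, which makes the transgenic pool at least 26.9-fold and at least 17.4-fold higher. Tuba8, an alpha-tubulin gene, gave 274 and 153 in wild-type and 961 and 2123 in transgenic RNA. Nptx1, a secreted pentraxin known from neurons, gave 779 and 18.8 against 1326 and 2693; its probe sets agreed in direction and differed widely in size, at 1.70-fold and at least 20.8-fold higher. Parm1, a mucin-like membrane glycoprotein gene, was 5.20-fold and at least 6.04-fold higher. Ratios of this size on a dim transcript depend on the floor, which caps them. Osbpl3, which encodes an oxysterol-binding protein, gave 221 and 20.5 in wild-type and 1452 and 528 in transgenic RNA. Cd163l1, a scavenger receptor family member, was under the floor in the wild type on both probe sets, at 59.6 and 35.5, and gave 1141 and 499 in the transgenic pool. Except for the brighter probe set of Nptx1, every probe set of these genes read 274 or less in wild-type liver, so their ratios rest on low wild-type signals.

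Other agreeing higher genes had at least 1 probe set that was already bright in wild-type liver. Some of their ratios still rest on dimmer probe sets. The second probe sets of Abhd6 and Dynll2 read 517 and 702 in the wild type, and the dimmest of H1f2 read 238. Selenbp1, a selenium-binding methanethiol oxidase of hepatocytes, gave 10672 and 8143 in the wild type and 36597 and 29643 in the transgenic pool, 3.43-fold and 3.64-fold higher. Selenbp1 has a near-identical paralog, so the member is uncertain. Tgm2, a transglutaminase that cross-links proteins, was higher on all 5 of its measured probe sets, which gave 4854, 2572, 1689, 1589.9 and 627 against 10316, 7577, 4287, 3967 and 1261. The ratios of Tgm2 ran from 2.01-fold to 2.94-fold, a narrow range for a gene whose probe sets span from 627 to 4854 in brightness. Tmem176a, a membrane protein gene, was higher on all 3, at 7528, 4932 and 3667 in the transgenic pool against 3600.0, 2046 and 1584 in the wild type. Abhd6, a monoacylglycerol lipase, gave 1406 and 517 against 4213 and 1162. Dynll1 and Dynll2, dynein light chain genes whose products are motor subunits, were higher on every probe set. Dynll1 gave 3099, 2361 and 1272 in the wild type and 6488, 5025 and 2744 in the transgenic pool, with ratios of 2.09-fold, 2.13-fold and 2.16-fold. Dynll2 gave 1333 and 702 against 2506 and 1844. Scpep1, a serine carboxypeptidase, gave 3777 and 3532 against 7385 and 7511. Selenok, a selenoprotein of the endoplasmic reticulum, was 1.84-fold and 1.80-fold higher, at 8702 and 6319.9 in the transgenic pool against 4732 and 3507 in the wild type. The genes described here span motor, protease and membrane functions. Several were chosen after their values were seen, so they do not stand for all bright higher genes. The linker histone gene H1f2 gave 1882, 1524 and 238 in the wild type and 5504, 4089.7 and 371 in the transgenic pool.

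**Figure D2:**
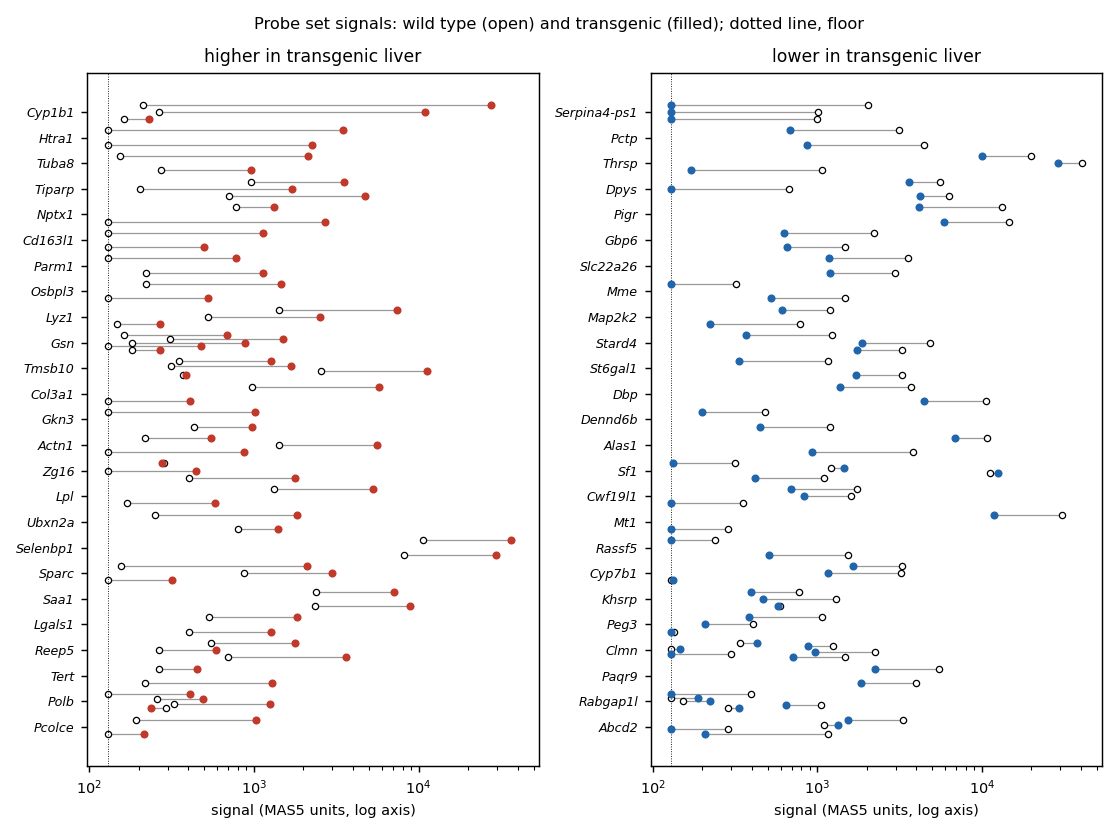
Signals (horizontal log axis, MAS5 units) of every measured probe set of the 25 agreeing genes with the highest (left) and the 25 with the lowest (right) median ratios; open circles are wild-type liver, filled circles transgenic liver, and the dotted line is the floor, to which lower signals were raised. Parallel lines within a gene show probe sets that differed alike, as for Selenbp1 and Pctp, and lines of unequal length show genes whose probe sets differed in size, such as Nptx1 and Thrsp.

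Genes of the cytoskeleton, which give cells their shape and carry cargo, were more often higher than lower. Of 44 measured genes for actin and tubulin subunits, annexins, galectins and S100 proteins, 24 were 1.5-fold or more higher, 2 lower and 18 neither, against 13.5% higher and 12.1% lower over all genes. The median log2 ratio was 0.65, against 0.01 for all genes, and 7 of 21 members with enough probe sets were agreeing and higher, against 4.55% of all such genes. Of the 44, 3 were measured only through the transgenic array. Besides Tuba8, tubulin genes with higher signals on their brightest probe sets were Tubb2a (1469 against 4076), Tubb5 (726 against 2287), Tuba1a (517 against 1616) and Tubb4b (1439 against 3021). Tmsb10, a thymosin that binds actin monomers, gave 2540.4, 371, 350.2 and 314 in wild-type and 11239, 387, 1277 and 1691 in transgenic RNA and 1 of its probe sets differed by only 1.04-fold. The other probe sets of Tmsb10 were 3.65-fold to 5.38-fold higher. Actn1, an actin cross-linker, gave 1429, 218 and 93.5 against 5580.0, 545 and 869.7. Gsn, the actin-severing protein gelsolin, was higher on 4 of 5 probe sets at 1.5-fold or more, with signals of 308, 181, 180.5, 163 and 111 in the wild type and 1497, 888, 269.7, 686 and 477 in the transgenic pool. Vim, an intermediate filament of mesenchymal cells, gave 778, 701 and 363 in the wild type and 1659, 2069.9 and 563 in the transgenic pool, and Lgals1, galectin-1, gave 532 and 403 in wild-type and 1819.6 and 1264 in transgenic RNA. The annexin genes Anxa5, Anxa1 and Anxa2 were 2.77-fold, 2.65-fold and 2.31-fold higher on their brightest probe sets. These annexins bind membranes in a calcium-dependent way and have 1 measured probe set each. The lower members were S100a13 and S100a10, calcium-binding family proteins, at 1.79-fold and 1.72-fold lower; a second probe set of S100a10 was 1.13-fold higher.

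Matrix genes, which encode collagens, proteoglycans and the proteins that assemble them, were also more often higher. Of 40 measured genes of the extracellular matrix, 25 were 1.5-fold or more higher, 2 lower and 13 neither, with a median log2 ratio of 0.85, beside the same 13.5% and 12.1% over all genes. Among 14 members with enough probe sets, 9 were agreeing and higher, against 4.55% of all such genes. Of the 40, 4 were measured only through the transgenic array. Sparc, a collagen-binding glycoprotein, gave 868, 156 and 129 against 2967, 2102 and 316. Bgn, the proteoglycan biglycan, gave 2388, 1383 and 856 in the wild type and 5025, 2979.8 and 2265 in the transgenic pool, with ratios of 2.10-fold, 2.15-fold and 2.64-fold. The ratio of Bgn thus varied little between its probe sets. Nid1, a basement membrane glycoprotein, gave 556 and 85.6 in wild-type and 1415 and 332 in transgenic RNA. Col4a1, the basement membrane collagen, gave 731 and 697 against 1378 and 1718. Pcolce, which promotes procollagen cleavage, was 5.35-fold and at least 1.66-fold higher. Dcn, the proteoglycan decorin, gave 4812 against 12463 on its brightest probe set, and its dim one did not follow, at 1.07-fold. Not all matrix genes were higher: Col18a1 and Hspg2, which encode basement membrane proteins, were 1.58-fold and 1.57-fold lower on their brightest probe sets. Tgfbi, a matrix protein induced by TGF-beta, lay outside that list and gave 1093, 1051, 964 and 546 in the wild type and 2985, 1104, 2427 and 1261 in the transgenic pool; integrin genes Itga8 and Itgav were agreeing and higher as well, with 438 and 192 against 1587 and 307 for Itga8.

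Markers of other cell types are set beside these groups. Of the 11 markers of stellate cells and fibroblasts, of which 5 are also on the matrix list, 10 were 1.5-fold or more higher, 0 lower and 1 neither; their summed signal was 10580.0 against 30120.0, and 0 of the 11 were below the floor in the wild type. Those not on the matrix list included the growth factor receptor genes Pdgfra (136 against 522) and Pdgfrb (165 against 602) and Lrat, the retinol esterifying enzyme of stellate cells (457 against 919.9). Of 15 measured markers of bile duct and gallbladder epithelium, 8 were 1.5-fold or more higher, 1 lower and 6 neither, with summed signals of 5338 against 10270.0; 10 of the 19 named markers were below the floor in wild-type and 5 in transgenic liver. Of 10 enterocyte markers, 5 were 1.5-fold or more higher, 0 lower and 5 neither, with summed signals of 22040.0 against 34220.0; 5 of the 11 named were below the floor in the wild type and 1 in the transgenic pool. A gene that was measured only because its transgenic signal passed the floor had to read higher there, and this holds for 4 of the 10 enterocyte and 6 of the 15 biliary markers, so these counts are descriptions and support nothing. Within these lists the defining markers did not go one way: Krt19, the bile duct keratin, and Sox9 were under the floor in the wild type and read 156 and 308 in the transgenic pool, whereas Epcam, an epithelial adhesion molecule, was lower at 1106 against 431 and turned higher without the _s_at and _x_at probe sets, which can match several transcripts. Of 11 endothelial markers, 1 was 1.5-fold or more higher, 1 lower and 9 neither, with a sum of 12930.0 against 13940.0. Of 12 markers of Kupffer cells and macrophages, 1 was 1.5-fold or more higher, 3 lower and 8 neither, with a sum of 42990.0 against 36250.0. Of 4 measured markers of smooth muscle, 3 were higher and 0 lower. Of the 4, 1 passed the floor only on the transgenic array and so had to read higher there. The part of these cells in the higher matrix, cytoskeleton and mucus genes was not tested, and in pooled tissue more cells of a type and more RNA per cell cannot be told apart.

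Genes of mucus and of epithelial defence had the second highest median of the pathway lists, 1.05. Of 22 measured genes, 15 were 1.5-fold or more higher, 1 lower and 6 neither; 12 of 28 named members were below the floor in wild-type and 6 in transgenic liver. Of the 22, 6 were measured only through the transgenic array and so had to read higher there. The biliary and enterocyte markers given above are to be read beside them. Lyz1, a lysozyme, was the brightest member that was agreeing and higher, and gave 1418, 528 and 148 in wild-type and 7437, 2522 and 268 in transgenic RNA; its near-identical paralog Lyz2 may share signal and gave 1564 against 4153. Gkn3, a gastrokine of stomach mucosa, lies outside the list and gave 429.7 and 126 in the wild type and 978 and 1020.2 in the transgenic pool. Zg16, a secretory granule lectin, gave 401, 283 and 72.3 in wild-type and 1765, 275 and 444 in transgenic RNA and reversed to -0.04 without the _s_at and _x_at probe sets. Lcn2, an iron-sequestering acute phase protein, gave 1263 against 2885. Pigr went the other way.

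Genes of the cell cycle were mostly dim in both pools. Of 32 measured genes, 14 were 1.5-fold or more higher, 4 lower and 14 neither, against 13.5% higher over all genes, with 0 agreeing among 2 with enough probe sets. Of the 32, 6 passed the floor only on the transgenic array and so had to read higher there. Pcna, the clamp of DNA polymerase, was the brightest that was higher, at 2481 against 3922. The helicase subunit Mcm7 gave 824 against 1532 and Mcm4 gave 262 against 683, and Tk1, thymidine kinase, was lower at 1079 against 535. Mcm6 and Mcm5 were under the floor in the wild type, and Mcm5 reversed to -0.21 on the probe set that was brightest over the liver arrays.

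**Figure D3:**
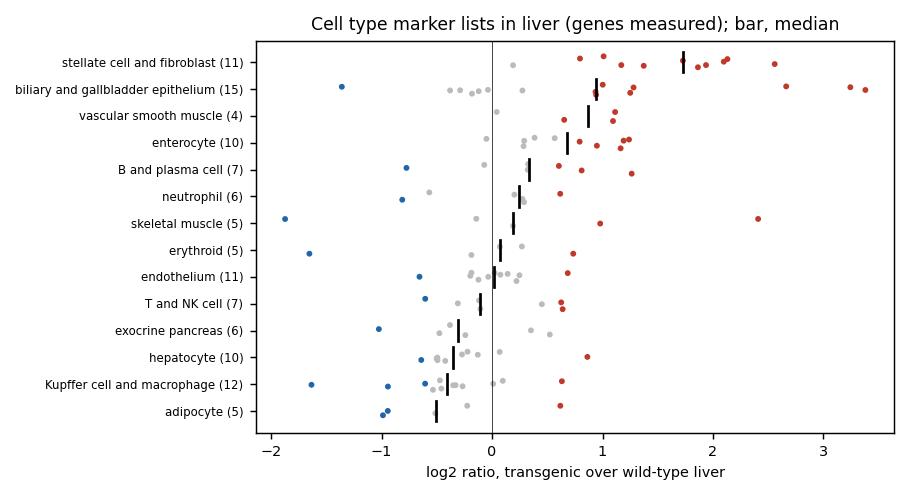
Log2 ratio of transgenic over wild-type liver (horizontal axis) for the measured members of the cell type marker lists, 1 point a gene, with the number measured in brackets; red points are 1.5-fold or more higher, blue 1.5-fold or more lower, and the bar is the list's median. Stellate cell and fibroblast markers have the highest median, 1.73, and endothelial markers lie at 0.02.

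A few genes of the oxidative stress response were higher. Srxn1, which repairs oxidised peroxiredoxins, was agreeing and higher on 3 of 4 probe sets, which gave 816, 596, 418 and 279.9 in wild-type and 1380.0, 1630.5, 377 and 862 in transgenic RNA. Txnrd1, thioredoxin reductase, gave 2646 against 4529.9, and Gsr, glutathione reductase, 1767 against 2877. Txn2, the mitochondrial thioredoxin, gave 1509, 1228 and 765 against 2060.1, 2524 and 2068. The glutathione transferase gene Gstp1, male-biased in mouse liver, gave 14174 against 34569.7, 2.44-fold higher at a high signal, but of the 20 glutathione transferases 5 were 1.5-fold or more higher, 3 lower and 12 neither, with a median log2 ratio of -0.22 that was 0.47 on the spiked control scale. In the list of NRF2 targets and glutathione supply as a whole, 4 of 18 genes were higher, against 13.5% of all genes, and 1 was lower, the latter being Sod1, cytosolic superoxide dismutase, at 24418 against 13767. The median log2 ratio was 0.15, and 13 of the 18 lay within 1.5-fold.

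Lysosomal and lipid genes with agreeing probe sets went both ways. Ctsz, a lysosomal cysteine carboxypeptidase, was higher on all 3 probe sets, with 6762, 5774 and 2545 in the wild type and 10511, 10857 and 4190.5 in the transgenic pool. Tpp1, a lysosomal peptidase, gave 4590.4 and 865 in the wild type and 8075 and 1418 in the transgenic pool. Ctsc, the cathepsin that activates granule proteases, was lower on all 3, with 10070.1, 332 and 208 against 4812, 173 and 96.7, and Lipa, lysosomal acid lipase, was lower on 2 of 3, with 4849, 3998 and 341 in the wild type and 4483, 2624 and 163 in the transgenic pool. Over the 34 measured lysosome and autophagy genes 5 were 1.5-fold or more higher, 3 lower and 26 neither, against 13.5% higher and 12.1% lower over all genes. Fabp5, a fatty acid binding protein of many epithelia, gave 5227 and 1329 against 8728 and 2503, whereas Dbi, which binds acyl-CoA, gave 26144, 23664, 10052 and 9626 against 14592, 14564, 9051 and 7773. The 2 binding protein genes thus differed in opposite directions. Lpl, lipoprotein lipase, gave 1327 and 168 in wild-type and 5299 and 577 in transgenic RNA, and Mgll, the cytosolic monoacylglycerol lipase, gave 4879, 2882 and 2183 in the wild type and 8462, 3766 and 3297 in the transgenic pool. Mgll acts on the same lipid as Abhd6.

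Cholesterol synthesis was the pathway with the most agreement among lower genes. The pathway builds cholesterol from acetyl-CoA through mevalonate and squalene, and its genes are driven together by the factor SREBP2 when sterols in the cell are low. Of 20 measured genes, 0 were 1.5-fold or more higher, 14 lower and 6 neither, against 12.1% lower over all measured genes. Of 9 members with enough probe sets, 7 were agreeing and lower, against 5.10% of all such genes. Hmgcs1, the synthase that starts the pathway, was lower on all 4 probe sets, which gave 30535, 16010.1, 11404 and 9417 against 17535, 7552, 5759 and 4193, with ratios of 1.74-fold, 2.12-fold, 1.98-fold and 2.25-fold. Idi1, the isopentenyl isomerase, gave 9031 and 4121 in the wild type and 4352 and 2428 in the transgenic pool. Fdft1, squalene synthase, gave 4563, 3588 and 307 in wild-type and 2303, 1929.9 and 201 in transgenic RNA. These enzymes act before the first sterol is formed, and all their probe sets read lower. Lss, which closes the sterol rings, gave 2100.3, 383 and 309 in the wild type and 961, 90.8 and 161 in the transgenic pool. Cyp51 and Msmo1 act on lanosterol and the sterols made from it. Cyp51 gave 2522, 1253 and 213 in the wild type and 1166, 646 and 32.0 in the transgenic pool, and Msmo1 gave 8719.9 and 205 in wild-type and 4091 and 107 in transgenic RNA. Stard4, a sterol carrier, gave 4859.6, 3254 and 1232 against 1871, 1737 and 369. Acss2, Acly and Aacs are not on the cholesterol list; Acss2 and Acly belong to that of fatty acid and triglyceride synthesis. Acss2, the cytosolic acetyl-CoA synthetase, gave 3444 and 3191 in the wild type and 1634 and 1833 in the transgenic pool. Aacs, which activates acetoacetate for synthesis and was picked after its value was seen, gave 1527 and 1154 against 697 and 655. Acly, ATP citrate lyase, was lower at 1.5-fold on 2 of 4 probe sets, with 5366, 3273, 1925 and 196 in the wild type and 4284, 2658, 1056 and 44.7 in the transgenic pool. The 2 brighter probe sets of Acly, 1 of which gives its gene value, differed by less than 1.5-fold. Under lowess the median of the cholesterol list was -0.71, and on the spiked control scale it was -0.11. No member was 1.5-fold higher.

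Hepatocyte markers are set beside the lower groups here. Of 10 measured markers, 1 was 1.5-fold or more higher, 1 lower and 8 neither, and the median log2 ratio was -0.35, less far from 0 than that of the cholesterol list at -0.79. Their summed signal was 474900.0 against 352100.0, and their part in the lower groups was not tested. Lowess moved the hepatocyte median to -0.06, and on the spiked control scale it was 0.33. In the respiratory chain, the mitochondrial machinery of oxidative phosphorylation, 0 of 36 measured genes differed by 1.5-fold, and the median was -0.05. Of 26 genes of the ribosome and translation, 1 was 1.5-fold or more higher, 0 lower and 25 neither.

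**Figure D4:**
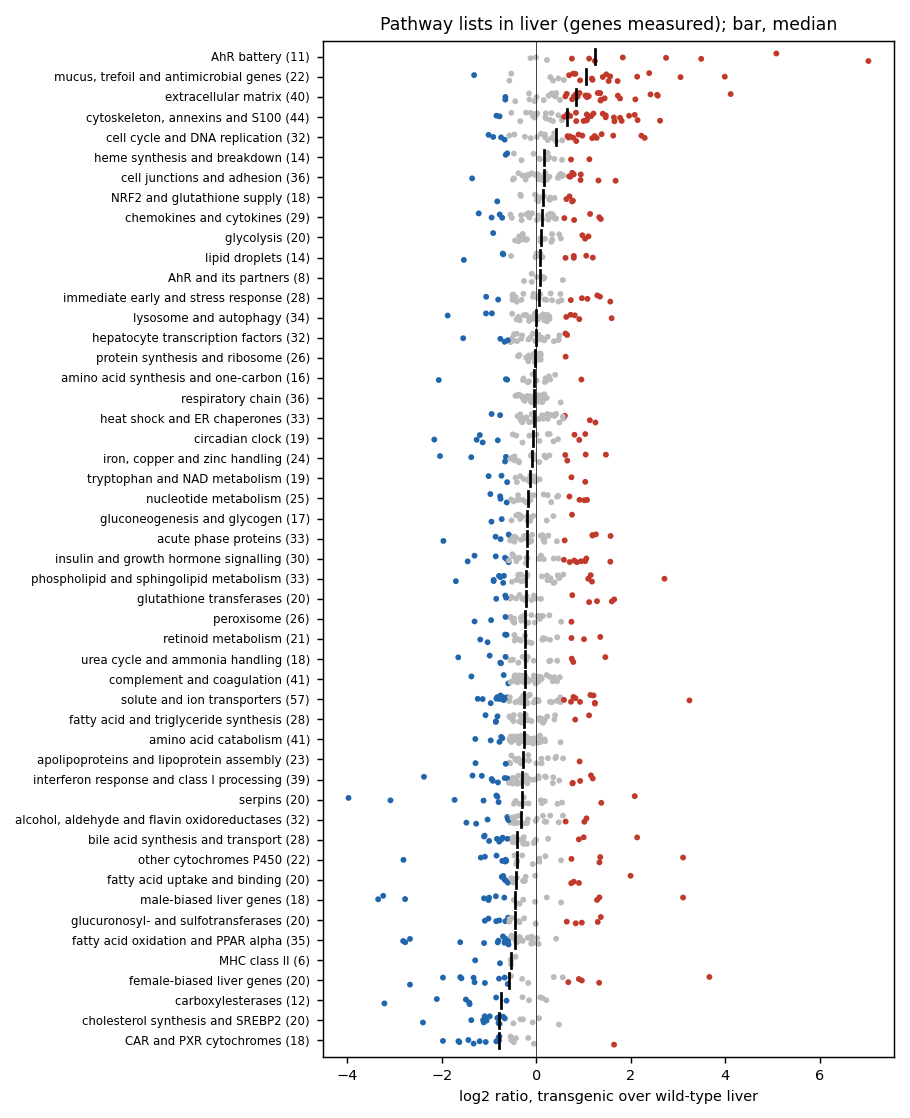
Log2 ratio of transgenic over wild-type liver (horizontal axis) for the measured members of the 50 pathway lists, ordered by median, 1 point a gene; red points are 1.5-fold or more higher, blue 1.5-fold or more lower, and the bar is the median. The CAR and PXR, cholesterol and carboxylesterase lists lie lowest, and the AhR, mucus, matrix and cytoskeleton lists highest.

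Among 50 pathway lists, 36 had a median below 0 and 13 above, and 5 had a median at or below -0.50. These were the CAR and PXR cytochromes (-0.79), the cholesterol genes (-0.79), the carboxylesterases (-0.74), the female-biased genes (-0.57) and the MHC class II genes (-0.54); on the spiked control scale the last 2 turned to 0.11 and 0.13. Of all 50 pathway medians, only those of the first 3 stayed below 0 on that scale. Carboxylesterases hydrolyse ester drugs and stored lipids, and 7 of 12 were lower and 0 higher, against 12.1% lower over all genes. Ces1d, a lipase of lipid droplets and very low density lipoprotein assembly, was lower on all 3 probe sets, with 12254, 8702 and 2579.7 in the wild type and 4600.5, 4391 and 1226 in the transgenic pool. Ces1e gave 2316 against 537, Ces1g 3815 against 1356 and Ces2a 8685 against 3236. These genes form close families, so the values are uncertain as to the member. Among the CAR and PXR cytochromes, which carry out much of hepatic drug oxidation, 11 of 18 were lower and 1 higher. Nr1i3, which encodes CAR itself, gave 2405 against 1336, whereas Nr1i2, which encodes PXR, gave 322.5 against 311.2. The 1 higher member was Cyp2c55, at 166.7 against 522.2. Only Cyp2b10, agreeing and lower, had enough probe sets for the agreement rule, and many of these cytochromes also belong to close families. Cyp2b9, Cyp2b13, Cyp3a16 and Cyp3a44 stand on the female-biased list as well, so the medians of both lists rest partly on the same genes.

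Several uptake transporters of the hepatocyte surface were agreeing and lower. Slco1b2, which takes up bile acids and drugs, was lower on 3 of 5 probe sets, with 34441, 17556, 14213, 789 and 314 against 19316, 8065, 7491, 655 and 342. Slco1a1, also on the male-biased list, gave 14909 and 4297 in wild-type and 6919.7 and 2002 in transgenic RNA, with ratios of 2.15-fold and 2.15-fold. Slco2b1 gave 4316 and 2431 against 2505 and 1494. These 3 belong to the organic anion transporting polypeptides, which bring bile acids, steroids and drugs into the hepatocyte. Of 28 genes of bile acid synthesis and transport, 3 were 1.5-fold or more higher, 8 lower and 17 neither, against 13.5% and 12.1% over all genes. The widest ratio of that list was upward, in Cyp8b1, at 1918 against 8427 on the probe set that gives its gene value. Slc22a26, an organic anion transporter, gave 3552 and 2973 in the wild type and 1183 and 1190.3 in the transgenic pool. Slc38a3, which carries glutamine into hepatocytes, gave 25949 and 766 in wild-type and 15559.9 and 406 in transgenic RNA, and the arginine transporter Slc7a2 was lower on 3 of 4 probe sets, with 12833, 1145, 1016 and 901 in the wild type and 7941, 816, 642 and 469.6 in the transgenic pool. The brightest probe set of each was lower. Aqp9, the glycerol channel of hepatocytes, gave 16553 and 5744 in wild-type and 10204 and 3821 in transgenic RNA. Slc4a4, a sodium bicarbonate cotransporter, was lower on 4 of 5 probe sets, with 3834, 2726, 2039, 1196 and 123 in wild-type and 1867, 1526, 1099.5, 697 and 138 in transgenic RNA. Among 57 measured solute and ion transporters, 10 were 1.5-fold or more higher, 16 lower and 31 neither, beside the same shares over all genes. The lower direction was thus not shared by all. Atp1b1, a sodium pump subunit, was agreeing and higher on 2 of 5 probe sets, and Slc1a2, the glutamate transporter of pericentral hepatocytes, was higher on 4 of 5, with 2546, 1397, 585, 156 and 50.3 in the wild type and 7015, 1653, 1178, 291 and 236 in the transgenic pool.

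A few genes of lipid transfer and synthesis were agreeing and lower. Pctp, which carries phosphatidylcholine between membranes, gave 4468 and 3144 in wild-type and 865 and 686 in transgenic RNA, 5.17-fold and 4.59-fold lower, and was the second lowest of the agreeing genes. Thrsp, a lipogenic regulator, gave 40507, 19846 and 1068 against 29017, 10012 and 171, so that its bright probe sets differed far less than its dim one. Pklr, the liver pyruvate kinase that feeds lipogenesis, was lower on all 3 probe sets, with 2067, 1479 and 841 against 1141, 789 and 109.6. Of 28 measured genes of fatty acid and triglyceride synthesis, 2 were 1.5-fold or more higher, 4 lower and 22 neither, against 13.5% higher and 12.1% lower over all genes. Abcd2, a peroxisomal transporter of very long chain fatty acids, was lower on 3 of 4, with 3311, 1155, 1100.0 and 286 against 1539.7, 208, 1333 and 26.5. Pank1, which controls coenzyme A synthesis, was lower on all 4, with 7419, 6758, 721 and 347 in wild-type and 3519, 3925, 428 and 165 in transgenic RNA. Hsd17b11, a lipid droplet enzyme, gave 16988 and 1028 in wild-type and 10372 and 468 in transgenic RNA. Of 35 genes of fatty acid oxidation, 0 were 1.5-fold or more higher, 14 lower and 21 neither, but 0 of 13 with enough probe sets were agreeing. Fgf21, a hormone of the fasting liver, gave 294 against 394.

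Metal handling and haem synthesis also had agreeing lower genes. Mt1, a metallothionein that binds zinc and copper, gave 30642 and 286 in wild-type and 11787 and 93.3 in transgenic RNA, and Mt2 gave 24845 against 6041 on its only measured one. Hamp, which encodes the iron hormone hepcidin, gave 50524 and 49667 in the wild type and 31248 and 31384 in the transgenic pool, with ratios of 1.62-fold and 1.58-fold. Slc39a14, a zinc and iron importer, was lower on 3 of 4 probe sets, with 2792, 941, 378 and 234 in wild-type and 1788, 542, 153 and 303 in transgenic RNA. The dimmest probe set of Slc39a14 was higher by 1.29-fold. Tfrc, the transferrin receptor, went the other way at 1007 against 2798, 2.78-fold higher. Alas1, the rate-limiting enzyme of hepatic haem synthesis, gave 10777 and 3793 in wild-type and 6878 and 934 in transgenic RNA. Over the 24 measured metal genes 4 were 1.5-fold or more higher, 4 lower and 16 neither, against 13.5% higher and 12.1% lower over all genes. The median of that list was -0.10, so the lower members did not stand for the group, and on the spiked control scale it was 0.58.

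The growth hormone axis gave a mixed picture. Igf1, the growth factor that liver secretes in response to growth hormone, was lower on all 4 probe sets and by 1.5-fold or more on 3, with 29206, 17806, 11442 and 8383 in the wild type and 21836, 9973, 6565 and 3886 in the transgenic pool. Ghr, the growth hormone receptor, gave 17089.9, 10989 and 4195 against 10796, 8001 and 2611. Jak2, the kinase that receptor uses, gave 1484 and 245 against 946 and 132. Igf1, Ghr and Jak2 were thus each lower by 1.5-fold or more on at least 2 probe sets. Their direction did not stand for the group. Of 30 measured genes of insulin and growth hormone signalling, 8 were 1.5-fold or more higher, 5 lower and 17 neither. The median log2 ratio of that list was -0.20. Of the 30, 2 passed the floor only on the transgenic array and so had to read higher there. Jak2 and Met are not on that list. Igfals, the acid-labile subunit that carries IGF1 in blood, was 1.81-fold lower. Igfbp1, an IGF binding protein raised in fasting, was 2.96-fold higher, and Igfbp2 was 2.74-fold lower. Egfr and Met, growth factor receptors of hepatocytes, were agreeing and lower, with 2826 and 983 in the wild type and 1855 and 651 in the transgenic pool for Met. Both sex-biased programmes had more lower than higher genes in these female livers. Of 20 female-biased genes, 5 were 1.5-fold or more higher, 10 lower and 5 neither. Of 18 male-biased genes, 3 were 1.5-fold or more higher, 8 lower and 7 neither. The shares over all genes were 13.5% higher and 12.1% lower. Serpina4-ps1, a serpin pseudogene, had the lowest agreeing ratio, with 2037, 1014 and 996 in the wild type and 89.0, 9.9 and 20.2 in the transgenic pool; all 3 transgenic signals were below the floor, so the pool was at least 15.8-fold, at least 7.84-fold and at least 7.71-fold lower. Cyp7b1, a male-biased hydroxylase of oxysterols, gave 3288, 3224 and 74.7 against 1644, 1156 and 132.

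Clock genes with agreeing probe sets were lower. Dbp, a clock-controlled factor with a strong daily rhythm in liver, gave 10626 and 3730.4 in wild-type and 4428 and 1374 in transgenic RNA. Per3, a period gene, was lower on 4 of 6 probe sets, which read from 324 to 1145 in the wild type and from 154 to 650.0 in the transgenic pool. On their brightest probe sets Ciart, a clock repressor, gave 578 against 20.4, Nr1d1, which encodes REV-ERB alpha, 758 against 345, and Bhlhe40, a repressor of the clock, 3100.4 against 1352. Arntl, the positive clock factor, and Cry1 went the other way, Arntl at 135 against 276 and Cry1 at 142 against 248, both dim. Over 19 measured clock genes, 3 were 1.5-fold or more higher, 5 lower and 11 neither, against 13.5% higher and 12.1% lower over all genes. No label gives the time of day at which livers were collected.

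Several genes of antigen presentation and of the interferon response were agreeing and lower. Pigr, the receptor that carries IgA into bile, was bright and gave 14584 and 13160.4 in the wild type and 5854 and 4176 in the transgenic pool, 2.49-fold and 3.15-fold lower. The MHC class II genes H2-Ab1 and H2-Aa, which present antigen, were lower at 1.5-fold on 3 of 3 and 3 of 4 probe sets; H2-Ab1 gave 3299, 1149 and 808 against 1344, 527 and 484. Kupffer cells and macrophages carry class II molecules, and of their 12 markers 3 were lower and 1 higher, with a median log2 ratio of -0.41 beside -0.54 for the class II genes. On the spiked control scale these medians were 0.28 and 0.13, and the part of those cells was not tested. Gbp6 and Gbp7 encode guanylate-binding proteins induced by interferon gamma. Gbp6 gave 2206 and 1465 in wild-type and 628 and 658 in transgenic RNA, and Gbp7 gave 1598 and 1304 in the wild type and 818 and 820.4 in the transgenic pool. Cxcl9, a chemokine of the same response, gave 1363 and 197 against 720.0 and 46.5, and Ccl9, a chemokine of myeloid cells, gave 5151 and 2597 against 2671 and 1614. Il15ra, which presents interleukin 15, gave 1178 and 798 in wild-type and 544 and 368 in transgenic RNA. The response as a whole was not uniform. Of 39 interferon and class I genes, 5 were 1.5-fold or more higher, 8 lower and 26 neither, against 13.5% higher and 12.1% lower over all genes. Of 11 with enough probe sets, 3 were agreeing and lower, against 5.10% of all such genes. Usp18 and Ifi27l2a were 2.29-fold and 2.23-fold higher. Saa1, an acute phase protein of hepatocytes with a near-identical paralog, was agreeing and higher, with 2392 and 2356 in wild-type and 7116 and 8880.4 in transgenic RNA. Of 33 acute phase genes, 5 were 1.5-fold or more higher, 4 lower and 24 neither, beside the same shares over all genes. Their median log2 ratio was -0.19. Of 41 complement and coagulation genes, 0 were 1.5-fold or more higher, 3 lower and 38 neither on their brightest probe sets; Masp1, a protease of the lectin pathway, was agreeing and higher on 2 of 5 probe sets, although its brightest one read 4088 against 3323.

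Amino acid and nucleotide catabolism had a few agreeing lower genes within lists that mostly stayed near 0. Uroc1 and Amdhd1 are successive enzymes of histidine breakdown. Uroc1 gave 8982 and 2916 in wild-type and 4989 and 1698 in transgenic RNA, and Amdhd1 gave 3029.8 and 719 in wild-type and 1810.0 and 438 in transgenic RNA. Hal, the enzyme that opens that pathway, has 1 measured probe set, which gave 5332 against 2178. Gpt2, mitochondrial alanine aminotransferase, gave 6117, 4654, 4401 and 2335 against 4117, 3367, 2804 and 1084, and Shmt1, cytosolic serine hydroxymethyltransferase, gave 6080.2, 5404, 4138 and 2817 in wild-type and 3892, 2731, 2873 and 1531 in transgenic RNA. Uroc1, Amdhd1 and Hal thus had lower signals, whereas Ftcd, a further enzyme of histidine breakdown on the same list, lay within 1.5-fold at 7197.5 against 6690.6. Dpys, dihydropyrimidinase, gave 6289, 5588 and 672 in wild-type and 4226, 3620.3 and 40.7 in transgenic RNA. Afmid, of the kynurenine pathway, gave 2504, 2269.8 and 384 against 1614, 1127 and 267. Of 41 genes of amino acid catabolism, 0 were 1.5-fold or more higher, 5 lower and 36 neither, a share of lower genes near the 12.1% of all measured genes. Glycan and membrane enzymes among the agreeing lower genes included St6gal1, which adds sialic acid to secreted glycoproteins, at 3269 and 1155 against 1722 and 332, and Nt5e, a surface nucleotidase, at 2170.1 and 916 in the wild type and 1284 and 358 in the transgenic pool. Paqr9, a membrane receptor family member, gave 5464 and 3976 in wild-type and 2237 and 1846 in transgenic RNA. Nat8f2, an acetyltransferase family member, was lower on all 3 probe sets, with 8147, 6596 and 5473 against 4086, 3433 and 2797, and ratios of 1.99-fold, 1.92-fold and 1.96-fold.

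Genes read by 1 measured probe set cannot be checked by agreement. There were 1708 such genes with a signal of 1000 or more. Among those with the largest ratios, and beside Cyp1a1 and Ahrr, were Tff2, a trefoil peptide of mucus, at 84.2 against 2059, and Prom1, a membrane protein of protrusions, at 479 against 6085. Cyp2d9, a male-biased steroid hydroxylase of a close family, gave 983 against 8486. Fhit, a dinucleotide hydrolase, was bright in the transgenic pool at 1914 against 12427. Ap1m2 and Fxyd3, genes of epithelial cells that also stand on the biliary marker list, were below the floor in the wild type and reached 1346 and 1225. On the low side, Dct, a melanin enzyme, gave 4608 against 342, and Serpina12, which encodes vaspin, gave 5402 against 635. Mup3 gave 16345 against 1603 and Mup10 gave 13482 against 1424. Both stand on the male-biased list and encode urinary carriers of pheromones, and other members of that family share their sequence. BC023105 gave 2537 against 514 and Sucnr1, the succinate receptor, 1367 against 178. Without a second probe set these values rest on 1 reading per genotype.

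The duodenum arrays show which of the agreeing liver differences had a counterpart in the other tissue. No array is shared with the liver comparison. The 2 duodenum pools also differed in markers of exocrine pancreas. Of 9 measured there, 9 were 1.5-fold or more higher in the transgenic pool and 0 lower, with a median log2 ratio of 4.76. Gkn3, the gastrokine of stomach mucosa, had a log2 ratio of 7.01 in duodenum. The part of such tissue in the duodenum ratios was not tested. Of the 124 genes higher in liver, 119 were measured in duodenum. Of these, 57 were 1.5-fold or more higher there, 15 lower and 47 neither, against 19.2% higher and 25.9% lower over all 14720 genes measured in duodenum. Of the 139 genes lower in liver, 135 were measured, and 33 were lower, 34 higher and 68 neither. The genes lower in liver thus split evenly in the other tissue, near its background, and those higher in liver were mostly higher or neither. With agreeing probe sets in both tissues, 20 genes were higher in both, among them Selenbp1, Tgm2, Tmem176a, Vim, Actn1, Gsn and Krt8. Selenbp1 had log2 ratios of 1.78 in liver and 1.31 in duodenum on its gene value, and Tgm2 1.09 and 1.71. Lower in both with agreement were 14 genes, among them Hmgcs1, Egfr, Nampt, Per3 and Mme. The gene value of Hmgcs1 in duodenum was within 1.5-fold, at -0.27. The 20 cholesterol genes had a median log2 ratio of 0.09 in duodenum, with 2 higher and 4 lower by 1.5-fold or more. Opposed with agreement in both tissues were 7 of the higher and 11 of the lower liver genes. The share of all duodenum genes that met the agreement rule is not given here. These overlaps therefore have no background beside them and are descriptions only. No test of the difference between tissues is possible with 1 array per group.

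**Figure D5:**
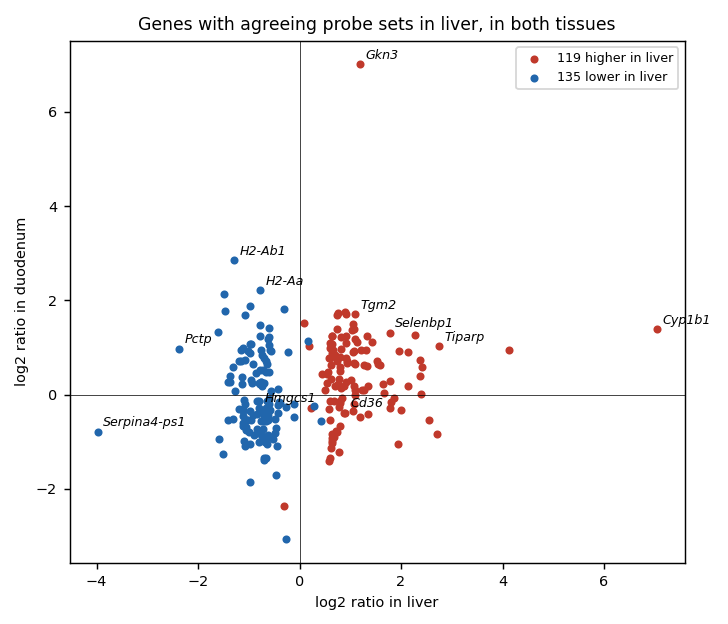
Log2 ratio of transgenic over wild type in duodenum (vertical axis) against that in liver (horizontal axis), for the agreeing liver genes measured in duodenum, each a point at its brightest probe set; red marks 119 genes higher and blue 135 genes lower in liver. The red points have a median of 0.48 in duodenum, and the blue points spread to both sides, with H2-Aa and H2-Ab1 far above 0.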

How the data were processed

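Per the labels and the series' design text, total RNA from liver or duodenum pools was hybridised to 1 Affymetrix array per group, 4 arrays in all. The authors deposited a linear signal intensity for each probe set, which per the submitters' processing notes came from MAS5; the sources used here give neither its version nor its present and absent calls. The mean signal without the lowest and highest 2% was 500.0 on each array. Of 45101 probe sets, 34958 had 1 gene symbol in the platform annotation, 932 had several and were not named, and 9211 were not listed. The 64 control probe sets were left out. Signals below 129.3, the mean 40th percentile of the 4 arrays, were raised to that floor, and a ratio with 1 signal at it is a bound, written as at least that size. The number of arrays limits the precision, and no test was possible.

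The members and the 64 lists (50 of pathways, 14 of cell type markers; 1547 symbols, of which 1387 were named here) were chosen with earlier results of these data known. Genes named are the 30 highest and 30 lowest agreeing genes, every agreeing list member, the 2 highest and lowest of each list, the 10 highest and lowest with 1 probe set, the 10 brightest and a fixed set of AhR genes; not all are described. Described outside this rule, and chosen after their values were seen, were Aacs, Anxa1, Anxa2, Anxa5, Bhlhe40, Ces1g, Ces2a, Colec11, Cry1, Dcn, Dynll1, Dynll2, F2r, Fgf1, Gsr, Gstp1, Hopx, Igfals, Itga8, Itgav, Jak2, Krt19, Lcn2, Lyz2, Mcm4, Mcm7, Met, Myo6, Nat8f2, Nceh1, Nr1d1, Nr1i3, Pank1, Pcna, Pdgfra, Pdgfrb, Ppm1k, Scpep1, Selenok, Slc4a4, Sox9, St3gal5, Tcf4, Tgm2, Tmem176a, Tuba1a, Tubb2a, Tubb4b, Tubb5 and Txn2. Alternatives were the floor, the scaling (quantile, lowess, spiked controls), the choice of probe set and the agreement rule. Python 3.11.15, pandas 2.3.3 and statsmodels 0.14.6 were used, and the functions were tested on simulated data.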

Additional observations from a re-analysis of the deposited data

Results flagged for a closer look

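With agreeing probe sets in both tissues, 18 genes differed by 1.5-fold or more one way in liver and the other way in duodenum. They stand out because their agreeing probe sets lay on opposite sides of the wild type in the 2 tissues. No background share for agreement in duodenum stands beside this count. The probe set that gives the gene value did not always show this. In duodenum its log2 ratio was within 1.5-fold for Tpm1 (-0.19), Cd36 (-0.38), Tsc22d1 (-0.13), Tob2 (0.24) and Mef2d (-0.39). For Mef2d it was below 0, as were its agreeing probe sets in liver. The gene values of the rest differed by 1.5-fold or more in duodenum, opposite to the liver direction. With 1 array per group the difference was not tested. The duodenum pools also differed in exocrine pancreas markers, as given above, and the part of that tissue in these ratios was not tested. Among genes higher in liver, the median log2 ratio over agreeing probe sets in liver minus that in duodenum was 1.93 for Tpm1, 1.89 for Cd36, 1.81 for Nsd3, 1.82 for Kif5b, 1.75 for Tsc22d1, 1.62 for Ypel2 and 1.99 for Usp45. Tpm1 encodes a tropomyosin and Cd36 a fatty acid translocase; Cd36 had 0.88 in liver and -1.01 in duodenum. Among genes lower in liver, the same difference was -2.46 for Khsrp, -2.95 for H2-Ab1, -3.87 for H2-Aa, -2.04 for Tob2, -2.66 for Acss2, -2.80 for Pank1, -2.46 for Mef2d, -1.79 for Pdxk, -1.86 for Dbi, -1.93 for Cyp2b10 and -1.40 for Ceacam1. The widest opposition was that of the MHC class II gene H2-Aa, at -1.01 in liver and 2.86 in duodenum. Groups of 1 array cannot be examined for outlying samples.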

How the results depend on the processing

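The counts of genes at 2-fold depended on the floor: with it at the 60th percentile 292 were higher and 189 lower, and with no floor 2150 and 1905. On the spiked control scale they were 3634 and 141, and the agreeing genes 1877 and 9; 96.3% of calls were then higher, against 56.8%. That scale put the median log2 ratio at 1.92 for the AhR battery list, 1.48 for the extracellular matrix list, 1.33 for the cytoskeleton, annexins and S100 list, -0.11 for the CAR and PXR cytochromes list, -0.11 for the cholesterol synthesis and SREBP2 list, -0.06 for the carboxylesterases list, 0.11 for the female-biased liver genes list and 0.13 for the MHC class II list. Agreeing lower genes on that scale were Cwf19l1, Dennd6b, Mme, Mt1, Pctp, Pigr, Serpina4-ps1, Slc22a26 and Stard4. A signal of 500 gave 221 higher agreeing genes; 2000 gave 69 higher and 87 lower; agreement at 2-fold gave 46 and 27; and agreement of all probe sets gave 63 and 74. Omitting _s_at and _x_at probe sets left 73 higher agreeing genes. Quantile normalization and lowess kept these 4 counts within 1.5 times, and shared 118 and 120 of the 124 higher and 126 and 125 of the 139 lower agreeing genes. Reversed were Lpcat2 (-0.47) and Mcm5 (-0.21) with the brightest probe set over the liver arrays, Prss2 (0.75) with the mean of probe sets, and Epcam (1.18), Mcm5 (-0.21) and Zg16 (-0.04) without _s_at and _x_at probe sets; the cause was not tested beyond the choice of probe set. No paired analysis was possible because each group has 1 array.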

Other observations

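Some agreeing genes of liver belong to no list above. Higher in transgenic liver were F2r, the thrombin receptor, with 928 and 727 in the wild type and 2321 and 1728 in the transgenic pool, and Reep5, which shapes membranes of the endoplasmic reticulum, with 694, 547 and 264 in wild-type and 3601, 1779 and 586 in transgenic RNA. Tcf4, a transcription factor, was higher on 4 of 5 probe sets, with 442, 379.7, 298, 255 and 170.3 against 619, 1196, 541, 502 and 421. Myo6, an unconventional myosin, gave 479.7, 222 and 111 in the wild type and 1029, 367 and 389 in the transgenic pool. Colec11, a collectin of innate immunity, gave 2360.0 and 492 in wild-type and 4864 and 871 in transgenic RNA. Tert, the catalytic subunit of telomerase, gave 264 and 217 against 451 and 1293, and Polb, a DNA repair polymerase, was higher at 1.5-fold on 3 of 4, with 328, 290.1, 257 and 87.0 against 1256, 236, 491 and 408.

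Lower were Fgf1, a fibroblast growth factor, with 2133 and 1695 in the wild type and 1251 and 682 in the transgenic pool, and Peg3, an imprinted gene, with 1061, 405 and 135 in wild-type and 384, 208 and 11.8 in transgenic RNA. Gas1, a surface protein of growth arrest, gave 1815 and 619 in wild-type and 839.9 and 282 in transgenic RNA. Nceh1, which hydrolyses cholesteryl ester, was lower on all 3 probe sets, with 1377, 642 and 269 in wild-type and 619.5, 317 and 131 in transgenic RNA. Hopx, a small homeodomain protein, gave 5164 and 2172 against 2532 and 1209.9. Ppm1k, the phosphatase that activates branched-chain ketoacid oxidation, gave 3997 and 3783 against 2418 and 1918, and St3gal5, which makes the ganglioside GM3, gave 3450.4 and 2828 in wild-type and 2162 and 1615 in transgenic RNA. 

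Within a gene, probe sets of very different brightness could disagree in size. Thrsp had ratios of 1.40-fold, 1.98-fold and 6.25-fold lower from its brightest to its dimmest probe set, and Alas1 1.57-fold and 4.06-fold lower. For Sparc, the ratios were 3.42-fold, 13.4-fold and at least 2.45-fold higher in order of wild-type signal.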
